A study of Mus musculus with 2 samples.

Results

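Cd163+ macrophages that carry little of the Lyve1 gene program were studied among CD45+ cells of mouse visceral adipose tissue (VAT). A cell was a member when it had at least 10 unique molecular identifiers (UMIs) of C1qa, C1qb and C1qc together, at least 1 of Adgre1, which encodes the macrophage protein F4/80, at least 1 of Cd163 and at most 1 of Lyve1, Cd209f and Fcna together. Members also had no UMI of Cx3cr1, Cd3e, Cd3d, Xcr1 or Clec9a and at most 1 of Cd79a. Under these rules 697 of 25198 cells were members, 280 of 12474 in the library of mice given normal water (NW) and 417 of 12724 in the library of mice given antibiotics (ABX). Because the UMIs of these 14 genes chose the cells, the levels of those genes are given below as a description only.

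The mice of both groups were 15-week-old wild-type C57BL/6 animals kept specific pathogen free. ABX mice drank water with antibiotics, which in the study's methods are ampicillin, streptomycin, colistin and vancomycin. VAT was digested, with a tumor dissociation kit according to the labels and with collagenase type II according to the methods, CD45+ cells were taken with magnetic beads, and RNA and antibody tags were counted per cell. Each group was 1 library, and the number of mice behind each is not given in the sources used here. No difference between NW and ABX therefore has a replicate check, the libraries and the treatments cannot be told apart, and every interval below is a 95% interval for counting error only.

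Tissue macrophages take up dying cells, hemoglobin, lipids and extracellular matrix, and in adipose tissue many line vessels and carry the hyaluronan receptor Lyve1, the folate receptor Folr2 and the mannose receptor Mrc1. Cd163 encodes the receptor for complexes of haptoglobin and hemoglobin, and Hmox1 the enzyme heme oxygenase, which breaks down the heme that is taken up. Retnla encodes a secreted protein of alternative activation that IL-4 induces through STAT6, Pltp a phospholipid transfer protein and Vcam1 an adhesion molecule bound by integrins. These 5 genes were the markers given for the members.

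Promoter sequences are shown for the genes on which the comparisons below turn most, the MHC class II genes and Retnla. MHC class II promoters hold a Y box, the letters CTGATTGG, that the factor NF-Y is known to bind. It was searched on both strands, as CTGATTGG and CCAATCAG, in the 200 bases before the start of the RefSeq transcript and is printed in capitals. It lies with its first base 51 bases before the start of H2-Aa (GRCm38.p6 chr17:34287824-34288023, minus strand) and 62 bases before that of H2-Eb1 (chr17:34305667-34305866, plus strand). For Retnla, 142 bases are shown (chr16:48842409-48842550, plus strand). They run from 200 to 59 bases before the RefSeq start and end where the gene starts in GENCODE. They hold a match to TTCNNNNGAA, the spacing known for STAT6, in capitals, with its first base 145 bases before the RefSeq start. This motif reads the same on both strands.
H2-Aa: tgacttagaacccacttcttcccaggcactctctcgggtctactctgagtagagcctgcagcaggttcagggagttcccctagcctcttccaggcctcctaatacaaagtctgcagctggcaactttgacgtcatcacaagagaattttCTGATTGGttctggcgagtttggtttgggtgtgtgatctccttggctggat
H2-Eb1: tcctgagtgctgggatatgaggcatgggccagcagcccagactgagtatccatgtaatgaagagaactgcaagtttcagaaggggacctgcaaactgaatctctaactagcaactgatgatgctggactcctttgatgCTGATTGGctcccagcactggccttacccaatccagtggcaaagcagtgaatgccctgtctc
Retnla: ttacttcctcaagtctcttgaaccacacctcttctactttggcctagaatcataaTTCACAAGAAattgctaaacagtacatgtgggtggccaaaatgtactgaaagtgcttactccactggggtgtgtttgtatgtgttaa
Of 32851 RefSeq promoters, 1164 (3.54%) hold the Y box letters in the same 200 bases, and 1059 (3.22%) hold TTCNNNNGAA in the same 142 bases. A match describes the letters and does not show a site in use. The sequences of H2-Ab1, Vcam1 and Hmox1 were not used here.

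The libraries held 79855126 UMIs over 17662 barcodes in NW and 64801767 over 17785 in ABX, and filtered cells had a median of 5092 and 3845.5 UMIs. In all, 371 barcodes occurred in both libraries, and 5 NW members and 5 ABX members shared theirs with a filtered cell of the other library. Of the barcodes removed by the filters, 5 of 5188 in NW and 3 of 5061 in ABX met the gene rules. The members had a median of 4287 UMIs and 1796.5 genes in NW, and 4030 and 1714 in ABX, with 6.80% and 7.50% mitochondrial UMIs. The members of NW held 1359316 UMIs and those of ABX 1764401, and levels below are their summed UMIs per 1000000 UMIs, or CPM. In all comparisons a gene was counted as higher or lower at a ratio of 1.5, among genes with at least 100 UMIs.

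The members took a larger share of the cells in ABX than in NW. They were 2.24% of all filtered cells in NW (1.99 to 2.52%) and 3.28% in ABX (2.97 to 3.60%), a ratio of 1.46. Among all macrophages that passed the C1q, Adgre1 and lineage limits, 3722 in NW and 2612 in ABX, the members were 7.52% (6.70 to 8.42%) and 16.0% (14.6 to 17.4%), a ratio of 2.12 (1.84 to 2.45). These gated macrophages were divided into 4 other groups for comparison. Lyve1 program macrophages had at least 3 UMIs of Lyve1, Cd209f and Fcna, and numbered 2956 in NW and 1643 in ABX. Cx3cr1+ macrophages, 157 and 197 cells, had at most 1 such UMI and a UMI of Cx3cr1, which encodes the fractalkine receptor. Macrophages with neither gene program nor a Cd163 UMI, called Cd163-negative below, numbered 142 and 180, and 187 and 175 cells with 2 UMIs of the Lyve1 set lay in between.

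The shares of gated macrophages moved in opposite directions in the Lyve1 program group and in the others. Lyve1 program macrophages were 79.4% in NW and 62.9% in ABX, Cx3cr1+ macrophages 4.22% and 7.54%, and Cd163-negative ones 3.82% and 6.89%. Within macrophages lacking both the Lyve1 program and Cx3cr1, the members were 66.4% (61.6 to 70.9%) in NW and 69.8% (66.0 to 73.5%) in ABX. Members were 36.6% (33.1 to 40.1%) and 43.0% (39.9 to 46.2%) of all gated macrophages outside the Lyve1 program group. The larger share in ABX thus went along with fewer Lyve1 program cells, and among macrophages without that program the ratio was 1.18 (1.05 to 1.33). Depth moved with these shares. Lyve1 program cells had a median of 7284.5 UMIs in NW and 6032 in ABX, more than the members. When each cell was thinned to 2000 UMIs before the rules were applied, the log2 ratio of the members' share was 0.27 of all cells and 0.73 of gated macrophages, against 0.55 and 1.09. Background RNA of the Lyve1 set also differed. In T cells (at least 2 UMIs of Cd3e and Cd3d, none of Adgre1), Fcna was found in 29.2% in NW and 17.1% in ABX. Lyve1 was found in 11.5% and 6.18% of them and Cd209f in 10.6% and 3.97%. The part of this background in the shares was not tested.

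**Figure D1:**
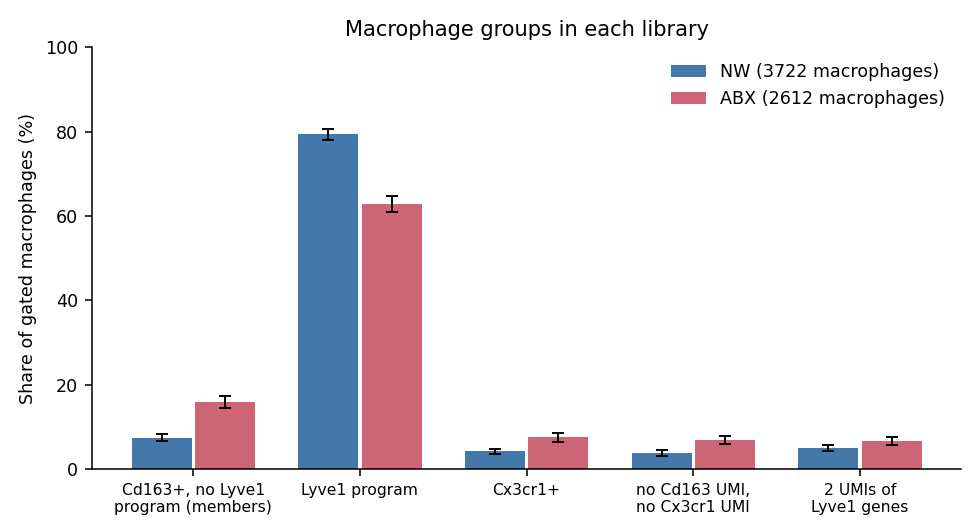
Share of gated macrophages (%) in each macrophage group for NW (3722 macrophages) and ABX (2612), with bars for the shares and error bars for exact 95% binomial intervals of the counts. The members stand at 7.52% in NW and 16.0% in ABX, and the Lyve1 program group at 79.4% and 62.9%.

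The members carried the genes of macrophages that their selection had not used. Csf1r, the receptor for the macrophage growth factor, was at 2004 CPM in NW and 2028 in ABX and was found in 99.3% and 98.6% of members. Cd68 was at 1883 and 1631 CPM, and the lysozyme gene Lyz2 at 7982 and 6090. Of the 5 markers, Cd163 had a UMI in every member by the rule. All 5 markers had a UMI in 79 members of NW (28.2%) and 100 of ABX (24.0%), 4 markers in 137 and 175, and 3 in 55 and 107. Another 9 NW members and 34 ABX members had 2, and 1 ABX member had Cd163 alone. These counts do not show identity, since T cells also held UMIs of the other markers. In NW and ABX, Retnla was found in 76.2% and 51.0% of T cells and Pltp in 35.5% and 23.8%. Hmox1 was found in 15.4% and 9.59% of them and Vcam1 in 5.17% and 5.24%.

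Of the markers, Vcam1 was the one that stood higher in the members than in Lyve1 program macrophages. Vcam1 (chr3:116109949-116129688) was at 528 CPM in NW members and 652 in ABX members, against 225 and 329 in the Lyve1 program group, ratios of 2.35 (2.17 to 2.54) and 1.98 (1.85 to 2.12). It had a UMI in 53.2% and 63.8% of members, against 5.17% and 5.24% of T cells, which should lack it. Retnla (chr16:48842551-48844461) was lower in the members, at 3467 CPM in NW and 1068 in ABX against 12371 and 8820 in Lyve1 program macrophages. Hmox1 (chr8:75093621-75100589) was at 335 and 405 CPM against 848 and 856, and Pltp (chr2:164839518-164857711) at 1849 and 1404 against 2757 and 2196. Cd163 (chr6:124304656-124330527) itself, a gene of the rule, was at 1944 and 2363 CPM in the members and at 2257 and 2393 in Lyve1 program macrophages, where 82.5% and 81.9% of cells had a UMI of it. A Cd163 UMI was thus not particular to the members, and neither were Retnla, Hmox1 and Pltp. Nor was Vcam1, which was at 524 and 683 CPM in Cd163-negative macrophages, with a UMI in 50.7% and 62.2% of them.

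**Figure D2:**
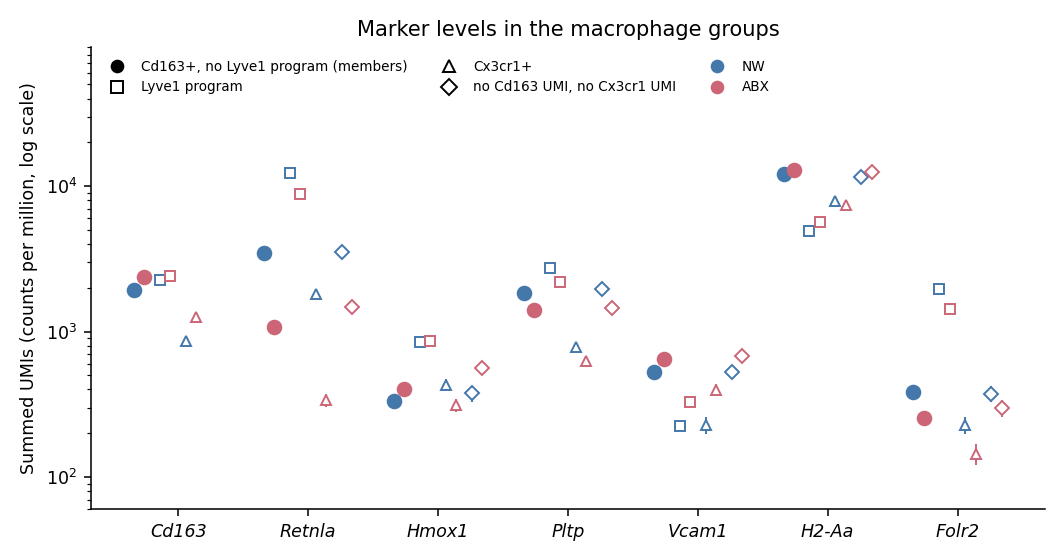
Summed UMIs of the markers in each macrophage group (CPM, log scale), NW and ABX in separate colours and the groups by symbol. Vcam1 stands higher in the members (528 and 652) than in the Lyve1 program group (225 and 329), and Retnla lower (3467 and 1068 against 12371 and 8820). In Cd163-negative macrophages Vcam1 stands at 524 and 683.

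Against the Lyve1 program group, 443 of 10342 genes tested were at least 1.5-fold higher in the members in both libraries (4.28%) and 420 were lower (4.06%). These groups differ by the UMI rules and the cells were chosen by them, so the differences are a description. The MHC class II genes, which present peptides to CD4+ T cells, were mostly higher. Of 9 tested, 7 were higher and 0 lower, and their median log2 ratio was 1.30 in NW and 1.09 in ABX, where that of all genes tested was 0.02 and 0.03. H2-Aa was at 12083 CPM in NW members and 12916 in ABX members against 4893 and 5637, and H2-Ab1 at 11011 and 10977 against 4388 and 4772. H2-Eb1 was at 10836 and 10822 CPM against 3848 and 4281. Cd74, the invariant chain, was at 16463 and 17681 against 7736 and 8910, and Ciita, the class II transactivator, at 198 and 150 against 67.4 and 70.1. The promoters of H2-Aa and H2-Eb1 are those shown above with the Y box.

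Per cell, the class II genes were spread over the whole group. The sum of H2-Aa, H2-Ab1 and H2-Eb1 reached 50 UMIs in 249 of 280 NW members (88.9%, 84.7 to 92.4%) and 361 of 417 ABX members (86.6%, 82.9 to 89.7%), and in 60.4% and 59.1% of the deeper Lyve1 program cells. T cells held 9.96 H2-Aa UMIs per cell in NW and 9.74 in ABX as background, against 58.7 and 54.6 per member.

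The remaining genes of the Lyve1 program, leaving out those of the rule, moved the other way, with 0 of 19 higher and 13 lower. Folr2 was at 385 CPM in NW members and 256 in ABX members against 1955 and 1436, and Ednrb, an endothelin receptor, at 59.6 and 69.7 against 921 and 740. F13a1, the coagulation factor XIII A chain, was at 1053 and 1018 against 2782 and 2483. The lectin gene Cd209d was at 19.1 and 9.07 against 249 and 187. Mrc1 was at 1318 and 1345 CPM against 1953 and 1900, under the 1.5-fold limit in both libraries.

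Other receptors of uptake differed among themselves. Of 21 scavenger receptor and lectin genes, 2 were higher and 7 lower. The phosphatidylserine receptor gene Timd4 was at 8.09 and 11.3 CPM against 109 and 88.1, Vsig4, a complement receptor, at 11.0 and 6.80 against 84.2 and 96.9, and the fatty acid receptor gene Cd36 at 3463 and 3424 against 5396 and 5643. Axl, another receptor in the uptake of dying cells, was higher in the members, at 291 and 326 against 143 and 163. Of 25 genes of heme and iron handling, 0 were higher and 3 were lower. They were Hmox1, the iron exporter gene Slc40a1 (161 and 179 CPM against 274 and 382) and the transferrin receptor gene Tfrc (28.0 and 26.6 against 69.9 and 57.7). Of 14 complement genes, 2 were higher and 5 lower, with C4b at 187 and 185 against 929 and 879.

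Genes of the cell cycle were higher in the members than in the Lyve1 program group, 13 of 15 with 0 lower. Mki67 was at 188 CPM in NW members and 95.8 in ABX members against 34.4 and 19.3. Its UMIs lay in few cells, with 50% of them in 4 NW and 4 ABX members. At least 2 UMIs of Mki67 or Top2a were found in 17 NW members (6.07%, 3.58 to 9.54%) and 13 ABX members (3.12%, 1.67 to 5.27%). Among Lyve1 program cells they were found in 3.08% (2.49 to 3.77%) and 1.64% (1.09 to 2.38%), and the intervals overlap in each library. Il1b, which encodes an inflammatory cytokine, was at 97.8 and 114 CPM against 29.8 and 31.7, one of 4 of 21 inflammatory genes that were higher, with 0 lower. Only 27 NW members and 34 ABX members had an Il1b UMI, and 4 and 6 cells held 50% of its UMIs. Of 11 monocyte genes, 3 were higher and 2 lower, and Ccr2, the receptor that brings monocytes into tissue, was at 267 and 217 against 98.7 and 71.4. Of 9 genes of peritoneal macrophages, 0 were higher and 7 lower, among them Prg4 at 5.89 and 3.40 CPM against 67.8 and 119. Prg4 had a UMI in 1.07% and 0.959% of members and in 1.32% and 2.56% of Lyve1 program cells, so that its difference rests on few cells of that group. Gata6, the factor that defines peritoneal macrophages, was at 0 in the members of both libraries.

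By size of the difference, the 10 genes highest against the Lyve1 program group were Ear2, Il1rn, Cenpf, Prc1, Ncapg, Aspm, Cd7, Hmmr, Tgfb3 and Cenpn, of which Cenpf, Prc1, Ncapg, Aspm, Hmmr and Cenpn act in mitosis. Each had a UMI in at most 5.04% of members. Ear2, a ribonuclease gene, was at 56.6 and 28.9 CPM against 7.42 and 1.46. The 10 lowest were Adgrg1, Prtn3, Selp, Alox15, Saa3, Hspa12a, Serpinb1a, Cd209d, Lbx1 and Prg4, and Adgrg1, Prtn3 and Selp had no UMI in any member, where a count of 0 allows up to 3 UMIs per library. Several of these rest on few cells of the comparison group. Prtn3, Selp, Alox15 and Saa3 had a UMI in at most 1.34% of Lyve1 program cells, while Cd209d had one in 47.5% and 40.4%.

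Depth was compared by taking only cells of 3000 to 6000 UMIs in both groups. The log2 ratio of H2-Aa over the Lyve1 program group was then 0.67 in NW and 0.82 in ABX, where it had been 1.30 and 1.20 with cells of any depth. Vcam1 gave 0.81 and 0.82 against 1.23 and 0.99, Hmox1 -0.72 and -0.69 against -1.34 and -1.08, and Retnla -2.16 and -2.84 against -1.84 and -3.05. The directions were kept, while 150 genes were higher and 188 lower in this narrower set.

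Against the Cx3cr1+ macrophages, 209 of 6533 genes were higher in the members in both libraries (3.2%) and 362 were lower (5.54%). Here the inflammatory genes lay on the other side. Of 20 inflammatory cytokines and regulators 0 were higher and 13 lower. Tnf was at 28.0 CPM in NW members and 19.8 in ABX members against 365 and 407, and Il1b at 97.8 and 114 against 1109 and 923. Il1a was found at 2.21 and 1.13 against 102 and 112. Of 18 chemokine genes, 3 were higher and 12 lower, with Ccl12, a ligand of Ccr2, at 38.3 and 57.8 CPM against 799 and 1108, while Ccl6 was higher, at 3431 and 2675 against 1426 and 801. Of 21 immediate early and heat shock genes, which react within minutes to stress such as digestion of the tissue, 0 were higher and 13 lower. Egr1 was at 1068 and 677 CPM against 4019 and 4064.

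Part of the Lyve1 program was higher in the members than in Cx3cr1+ cells. Of 16 genes outside the rule, 8 were higher and 1 lower, with Folr2 at 385 and 256 CPM against 227 and 143. Vcam1 and Pltp were higher by 2.33 and 2.36 times in NW and 1.64 and 2.23 times in ABX. Of the 7 MHC class II genes, 2 were higher and 0 lower, and H2-Aa was at 12083 and 12916 CPM against 7854 and 7399. Among 19 adhesion and integrin genes, 1 was higher and 9 were lower. The 10 genes with the highest ratios were Crispld2, Pianp, Atp6v0d2, Slc40a1, Abca6, Ikbke, Lpar1, Susd1, Atp1b1 and Rnf144b. Slc40a1, lower than in the Lyve1 program group, was higher here, at 161 and 179 CPM against 42.0 and 43.9. The 10 with the lowest were Il1a, Cxcl10, F11r, Ccl12, Tmem119, Tnf, Ccl7, Pmepa1, Itga6 and Tnfsf9.

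Against the Cd163-negative macrophages, which differ by the Cd163 limit alone, 52 of 6005 genes were higher (0.866%) and 16 were lower (0.266%). None of the 4 other markers, 7 MHC class II genes, 16 Lyve1 program genes, 22 genes of heme and iron handling or 25 lysosome genes passed the 1.5-fold limit in both libraries. Vcam1 was at 528 CPM in NW members and 652 in ABX members against 524 and 683, Pltp at 1849 and 1404 against 1953 and 1448, and H2-Aa at 12083 and 12916 against 11533 and 12570. Hmox1 was at 335 and 405 CPM against 375 and 565. Genes of the cell cycle were higher, 7 of 9 with 0 lower, with Mki67 at 188 and 95.8 against 74.1 and 9.39, and no other list had more than 2 genes past the limit. The cell cycle UMIs lay in few cells. At least 2 UMIs of Mki67 or Top2a were found in 6.07% of NW members and 3.12% of ABX members. Among Cd163-negative cells they were found in 8 of 142 (5.63%, 2.46 to 10.8%) and 3 of 180 (1.67%, 0.345 to 4.79%). These intervals overlap those of the members. The 10 highest genes were Crispld2, Cenpf, Cdk1, Il1b, Ube2c, Mki67, Ccl12, Prc1, Tef and Cyr61, and the lowest included Lyz1, Thbs1, Akr1b8, H6pd, Rhoh, Smim19, Itgax, Arl4a and Pign. Ratios of Crispld2 rest on 1 ABX member.

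**Figure D3:**
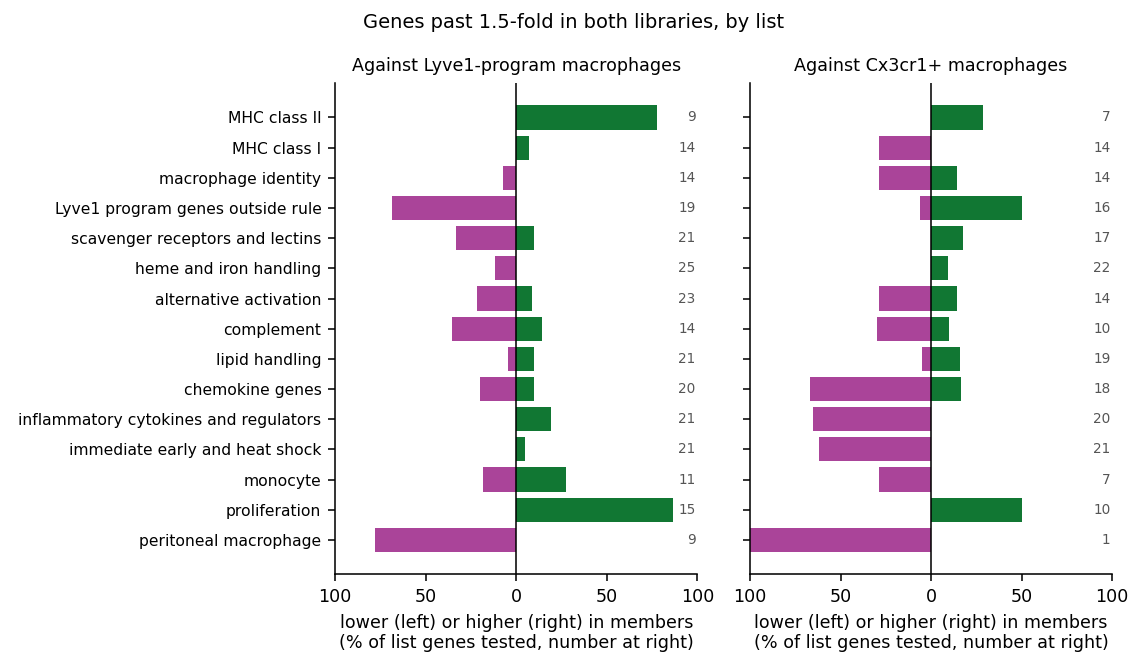
Share of each list's genes that were at least 1.5-fold higher (right) or lower (left) in the members in both libraries (% of genes tested, whose number stands at the right). The left panel is against the Lyve1 program group and the right panel against Cx3cr1+ cells. MHC class II (7 of 9 higher) and Lyve1 program genes (13 of 19 lower) lie apart from the middle against the Lyve1 program group, and inflammatory genes (13 of 20 lower) against Cx3cr1+ cells.

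The limits cut through continuous values. Members with exactly 1 Cd163 UMI numbered 52 in NW (18.6%) and 52 in ABX (12.5%), and cells with 10 or more 101 and 177. In the members with 1 UMI, Vcam1 was at 464 CPM in NW and 542 in ABX, against 607 and 724 with 10 or more and 524 and 683 in the cells just outside with 0. A Cd163 UMI was also found in 22.4% of T cells in NW and 19.2% in ABX. In members with 1 UMI of the Lyve1 set, 144 and 178 cells, Folr2 was at 399.7 and 328 CPM, in those with 0 at 366 and 203, and in the cells just outside with 2 UMIs at 604 and 542. At the C1q limit, 11 NW members and 47 ABX members had 10 to 14 UMIs. Their median depth was 2034 and 2016 UMIs, and that of the 17 and 45 cells with 5 to 9 C1q UMIs was 2267 and 1858. Cells left out for 1 Cx3cr1 UMI had Il1b at 541 and 566 CPM.

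Retnla was held by a minority of members. In NW the median member had 2 UMIs and the highest 1456, and in ABX the median was 1 and the highest 93. At least 10 UMIs were found in 42 NW members (15.0%, 11.0 to 19.7%) and 50 ABX members (11.99%, 9.03 to 15.5%), which carried 89.2% and 77.7% of all Retnla UMIs of the members. In NW 5 cells and in ABX 22 cells held 50% of them. T cells, which should lack the gene, had a Retnla UMI in 76.2% of NW cells and 51.0% of ABX cells at a median depth of 3672 and 3452 UMIs, against 86.1% and 61.2% of members. Counts of 1 or 2 were found in 43.9% of NW members and 49.97% of NW T cells, and in 38.1% and 40.6% of those of ABX, so that such counts in a member are read as background. Members with at least 10 Retnla UMIs had Pltp at 2560 and 2272 CPM and Vcam1 at 309 and 403, below the 528 and 652 of all members. In the Lyve1 program group the median cell held 39 Retnla UMIs in NW and 13 in ABX.

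Vcam1 divided the members more evenly. In NW 149 members had a UMI of it (53.2%, 47.2 to 59.2%) and in ABX 266 (63.8%, 59.0 to 68.4%), and the highest cells held 19 and 23. With every member thinned to 2000 UMIs, leaving out 16 NW and 36 ABX members below that depth, the shares were 43.3% and 53.1%. Members with a Vcam1 UMI had Retnla at 1467 CPM in NW and 915 in ABX, and those without at 5906 and 1380. The NW cell with 1456 Retnla UMIs had no Vcam1 UMI, and without it the NW level was 3605 CPM. Cd163, on the contrary, was at 2016 and 2349 CPM with Vcam1 and at 1857 and 2390 without. Members with at least 2 Ccr2 UMIs, 20% in NW and 17.0% in ABX, had Retnla at 7451 (3294 without that cell) and 1156 CPM and Cd163 at 1438 and 1882.

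**Figure D4:**
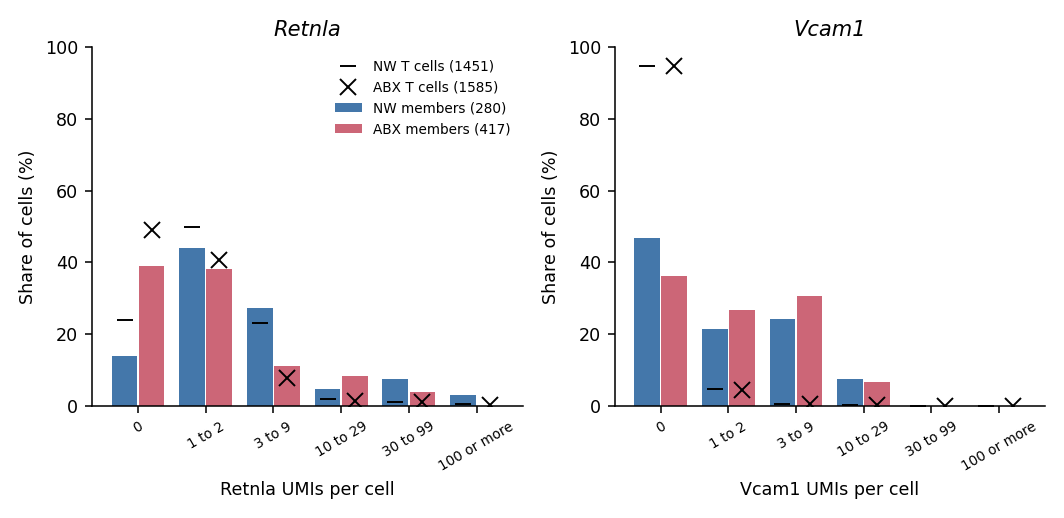
Share of cells (%) by number of UMIs of a marker per cell, with bars for the members of NW (280) and ABX (417) and marks for T cells of each library. Most members hold 0 to 9 Retnla UMIs like the T cells, while 15.0% in NW and 11.99% in ABX hold 10 or more, and 53.2% and 63.8% have a Vcam1 UMI.

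Between ABX and NW, 95 of 4795 genes tested in the members were at least 1.5-fold higher in ABX (1.98%) and 104 were lower (2.17%), and the median log2 ratio over all tested was -0.0046. Retnla was the marker past that limit, at 3467 CPM in NW and 1068 in ABX, 3.25-fold lower (ratio 0.308, 0.292 to 0.325). It rested in part on 1 NW cell with 1456 of 4713 UMIs. With the highest cell of each library left out the levels were 2396 and 1016 CPM, and over all settings tried the log2 ratio lay between -1.89 and -0.83. The share of members with a Retnla UMI moved too, from 86.1% to 61.2%, or from 64.3% to 43.1% at 2000 UMIs per cell, but the share of T cells with one, read as background, moved likewise, from 76.2% to 51.0%, and members with at least 10 Retnla UMIs were 15.0% (11.0 to 19.7%) and 11.99% (9.03 to 15.5%), with intervals that overlap. Retnla was also lower in ABX in the other groups, with ratios of 0.713 in Lyve1 program, 0.185 in Cx3cr1+ and 0.420 in Cd163-negative macrophages.

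The remaining markers moved by less than 1.5 times. Cd163 had a ratio of 1.22 (1.16 to 1.28), Hmox1 of 1.21 (1.07 to 1.36) and Vcam1 of 1.24 (1.12 to 1.36), and Pltp of 0.759 (0.718 to 0.803). The Vcam1 ratio was 1.46 in Lyve1 program and 1.75 in Cx3cr1+ macrophages.

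Id2 and Vim were chosen for fuller description after their values had been seen, because leaving out the highest cell moved their log2 ratios little, to 1.18 and -1.21 from 1.12 and -1.20. Id2 (chr12:25093799-25097140), which encodes an inhibitor of DNA binding by helix-loop-helix factors, was at 128 CPM in NW and 279 in ABX, a ratio of 2.18 (1.83 to 2.60), with a UMI in 26.4% and 29.7% of members. Its UMIs were nonetheless concentrated, since 3 NW members and 15 ABX members with at least 10 UMIs carried 20.7% and 46.7% of them, and 17 ABX cells held 50%. Id2 is also expressed by T cells, of which 18.6% in NW and 21.9% in ABX had no UMI of it. Over the settings tried its log2 ratio lay between 0.81 and 1.39. The Id2 ratio was 1.36 in Lyve1 program, 1.25 in Cx3cr1+ and 1.48 (1.16 to 1.90) in Cd163-negative macrophages. Vim (chr2:13573927-13582826), the intermediate filament gene vimentin, was at 921 CPM in NW and 402 in ABX, a ratio of 0.436 (0.397 to 0.479), with a UMI in 68.6% and 48.2% of members and a log2 ratio between -1.41 and -1.08 over the settings tried. Of its UMIs, 50% lay in 18 NW and 20 ABX members. The Vim ratio was 0.547 in Lyve1 program, 0.305 in Cx3cr1+ and 0.379 in Cd163-negative macrophages, so that it was lower in ABX in each of these groups. It was not lower in macrophages alone. Of T cells, 19.8% in NW and 32.3% in ABX had no Vim UMI, and 13.9% and 6.12% had 10 to 29.

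By the ratio alone, the 12 highest genes in ABX were Crispld2, Acta2, Msi2, Jchain, Ighm, Ccnd2, Igkc, Id2, Rif1, Col14a1, Ifi47 and Xaf1. Crispld2 had 1 UMI in NW and 169 in ABX, of which 165 were in 1 cell, and Acta2, the smooth muscle actin gene, had 9 and 118 UMIs, with 114 in 1 cell. Single ABX cells also held 858 of the 1764 UMIs of Ighm, 1129 of the 3165 of Igkc and 140 of the 235 of Jchain, genes of B and plasma cells. Without the highest cell the log2 ratio of Ighm was 0.32 and that of Igkc 0.53. T cells of NW carried 25.9 Igkc UMIs per cell and those of ABX 74.4, and members 3.925 and 7.59. The T cell gate set no limit on Cd79a, and cells with at least 3 Cd79a UMIs and none of Adgre1 held 858 and 570. The T cell means can thus include doublets with B cells and are not a level of free RNA. The part of free RNA in the result was not tested. Msi2 was higher in more cells, with a UMI in 6.79% of NW members and 15.8% of ABX members and a ratio of 2.93 (1.89 to 4.71). Ifi47, an interferon-induced GTPase gene, had a ratio of 2.07 (1.47 to 2.95).

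The 12 lowest genes in ABX were Lyz1, Fn1, Gpnmb, Retnla, Ube2c, Klkb1, Emp1, Fabp5, Cenpe, Prc1, Vim and Cenpf. Lyz1 was at 359 CPM in NW and 36.3 in ABX, and Fn1, the fibronectin gene, at 122 and 15.3. Both rest on few cells, since 9 NW members (3.21%, 1.48 to 6.01%) and 2 ABX members (0.480%, 0.0581 to 1.72%) had at least 5 UMIs of Lyz1 and Fn1 together. Those 9 NW cells had Retnla at 22758 CPM, or 10051 without the cell of 1456 Retnla UMIs, and Cd163 at 336. With these cells left out the log2 ratio was -0.09 for Lyz1, -0.47 for Fn1 and -0.83 for Retnla, against -3.31, -3.00 and -1.70. A single NW cell held 68 of the 115 UMIs of Gpnmb and a single NW cell 143 of the 240 of Klkb1. Emp1, which encodes an epithelial membrane protein, had a UMI in 24.6% of NW members and 9.83% of ABX members and a ratio of 0.370 (0.281 to 0.483). When the highest cell of every gene was left out, 88 of the 95 higher genes and 88 of the 104 lower ones stayed past the 1.5-fold limit.

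**Figure D5:**
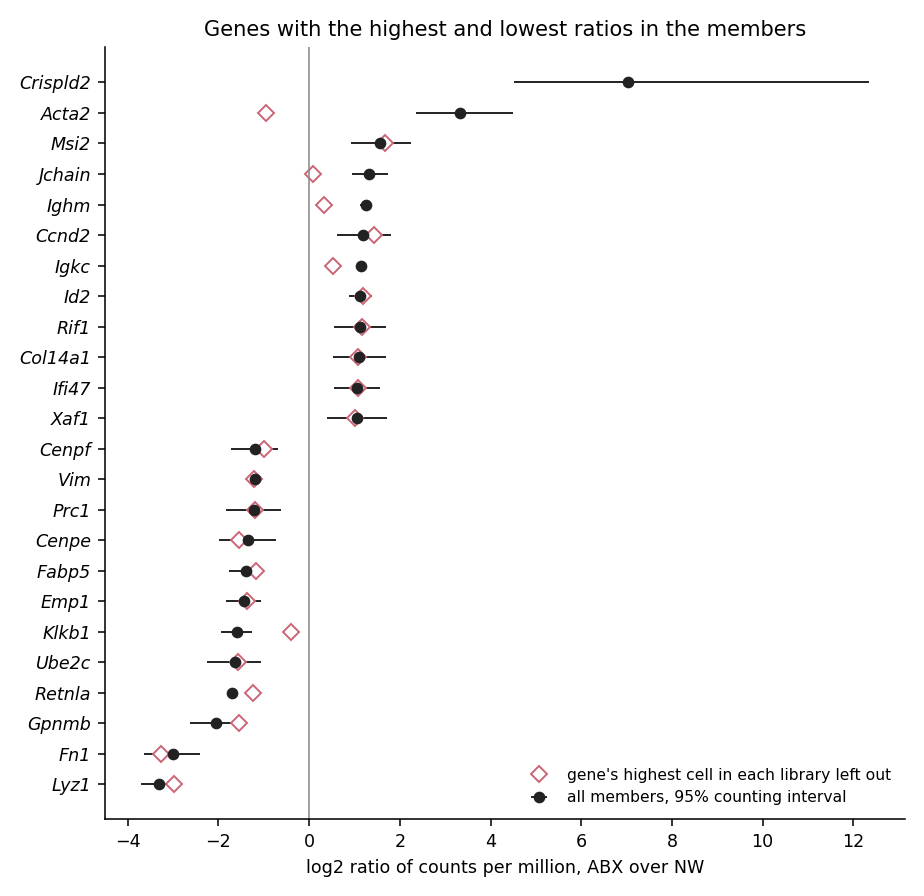
Log2 ratio of CPM, ABX over NW, for the 12 highest and 12 lowest genes in the members, with dots and 95% counting intervals for all members and diamonds for the value without the gene's highest cell in each library. Ighm, Igkc, Klkb1 and Retnla move toward 0 and Acta2 past it without that cell, Id2 and Vim stay at 1.18 and -1.21, and Crispld2 has no diamond because no NW UMI was left.

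Most lists of genes lay near a ratio of 1 in the members. Of 7 MHC class II genes, 13 MHC class I genes, 19 of heme and iron handling, 25 lysosome genes, 13 inflammatory genes, 8 of the IL-10 and TGF-beta pathways and 13 growth factors and receptors, 0 passed the limit in either direction. The summed MHC class II level was 51141 CPM in NW and 53028 in ABX. Csf1r had a ratio of 1.01 and Apoe, the apolipoprotein E gene, was at 10499 and 10010 CPM. Of 14 macrophage identity genes 1 was lower, Itgam, the integrin CD11b, at 207 and 137 CPM.

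Other lists held genes past the limit. Of 6 monocyte genes, 4 were lower in ABX (Lyz1, Fn1, Ear2 and S100a4, the last at 122 and 53.8 CPM), and the summed list was at 1380 and 665 CPM. Ear2, like Lyz1 and Fn1, rested on few cells, with 50% of its 77 NW UMIs in 2 cells and 39 of its 51 ABX UMIs in 1 cell. Of 12 adhesion genes, 4 were lower, with the hyaluronan receptor Cd44 at 247 and 139 CPM, beside Itgam, Emilin2 and Fn1. Of 14 chemokine genes, 3 were higher and 2 lower. Ccl3 was at 317 and 476 CPM, Ccl4 at 95.6 and 144 and Ccl12 at 38.3 and 57.8, and the lower ones were Cxcl2, which attracts neutrophils, at 427 and 261 and Ccl8 at 104 and 67.4. Of 23 transcription factors, 3 were higher (Id2, Klf4 at 110 and 182 CPM and Cebpd at 64.0 and 97.5) and Egr1 was lower, at 1068 and 677. Of 15 Lyve1 program genes outside the rule, 0 were higher and 2 lower, Folr2 at 385 and 256 CPM and Ccl8.

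Of 6 cell cycle genes tested, 3 were lower in ABX (Mki67, Cenpf and Ube2c), and the 15 genes of the list summed to 1084 and 752 CPM. With no UMI of the Lyve1 set allowed, the log2 ratio of Cenpf turned from -1.20 to 0.67 and that of Mki67 went from -0.98 to -0.01. Of 9 interferon-stimulated genes 1, Ifi47, was higher, and the summed list was at 618 and 808 CPM. Of 13 alternative activation genes, Klf4 was higher and Retnla, Ear2 and Fn1 were lower, Ear2 and Fn1 being counted in the monocyte list as well. Of 12 microbial sensors 1, Naip2, was lower, and the lipopolysaccharide receptor gene Cd14, at 437 and 599 CPM, had a ratio of 1.37 (1.24 to 1.52). Of 7 genes of lipid-associated macrophages, Gpnmb and Atp6v0d2 (126 and 77.1 CPM) were lower, and of 17 lipid handling genes 1, Fabp5, passed the limit, at 129 and 49.3 CPM, lower in ABX. It rested on 2 NW and 2 ABX cells that held 50% of its UMIs, and its log2 ratio turned from -1.38 to 0.11 without members that carried 2 UMIs of another lineage, immunoglobulin genes aside.

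RNAs that mark other cells were also found in the members. T cell genes summed to 188 CPM in NW and 222 in ABX, with 12 of 12 detected in both. B and plasma cell genes, of which 3 of 3 tested were higher in ABX (Igkc, Ighm and Jchain), summed to 1340 and 3006 CPM, 11 and 12 of 12 detected, with at least 2 UMIs in 95.7% and 97.4% of members. NK and innate lymphoid genes summed to 143 and 244 CPM (11 and 12 of 12 detected), dendritic cell genes to 403 and 378 (14 of 14), neutrophil genes to 177 and 199 (7 and 8 of 10, with Ly6g and Ngp at 0) and endothelial genes to 152 and 214 (8 and 10 of 12, with Flt1 and Tie1 at 0). Fibroblast and mesothelial genes summed to 154 and 173 CPM (8 and 10 of 12, with Msln and Krt19 at 0) and adipocyte genes to 344 and 387 (9 and 10 of 10). Of 10 mast cell and basophil genes 3 and 4 were detected, and Cpa3, Mcpt4, Fcer1a, Ms4a2, Mcpt8 and Gata2 were at 0 in both libraries. The part of these RNAs in the differences between NW and ABX was not tested.

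The antibody tags, which the selection did not use, had similar medians in the members of both libraries. The median count of CD44 was 64 in NW and 62 in ABX, of NK-1.1 32 and 30, of TCR-beta 13 and 14, of CD1d 11 and 10 and of CD3 9 in both, with a median total of 176 and 161. Cd44 RNA, summed over cells and divided by all UMIs, had a ratio of 0.562 (0.475 to 0.664). The tag medians are unscaled counts per cell, so these measures are unlike. By other measures the CD44 tag moved, with an upper quartile of 122 in NW and 99 in ABX. Its share of all antibody UMIs was 20.7% and 27.8%. CD1d was at 15 and 14 in Lyve1 program macrophages and at 5 and 4 in T cells, and CD44 at 175 and 137 in T cells. TCR-beta was at 29 and 21 in T cells, above the members in both libraries, but CD3 was at 9 and 7 and NK-1.1 at 19 and 15, at or below the members.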

How the data were processed

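CD45+ VAT cells of 1 NW and 1 ABX library were profiled with BD Rhapsody whole transcriptome and antibody sequencing. The deposited counts are UMI counts per gene or antibody and cell, which the authors made with the BD Rhapsody WTA Analysis Pipeline 1.8 on GRCm38 without normalization. The submitters' processing notes also name R 3.6.0 and Seurat 3.0.1. The files hold 10 antibody columns. Here, cells with at least 500 gene UMIs, 200 genes and at most 25% mitochondrial UMIs were kept (Python 3.11.15, numpy 2.4.6, scipy 1.17.1, pandas 2.3.3). Members and the 35 gene lists (524 genes) were chosen with earlier results of these data known. T cells, used for background, had at least 2 UMIs of Cd3e and Cd3d and none of Adgre1, with no limit on Cd79a. UMIs were summed over members and divided by their total. Genes needed 100 UMIs over both sides, and ratios have exact conditional 95% intervals, shares exact binomial ones. With 1 library per group no test was possible. Doublets were not called, and the lineage limits of the rule were the only guard. Named genes were the markers, list genes (the most abundant and those past 1.5-fold), the 12 highest and 12 lowest in ABX over NW whose interval leaves out 1, and the 10 highest and lowest against each group by the smaller of both library ratios, whatever their interval. Gene positions are from GENCODE M21. The scripts were tested on simulated data. Alternatives were another Lyve1, Cd163, Cx3cr1, C1q, depth, mitochondrial or gene limit, thinning, other scalings, and leaving out shared barcodes, lineage-positive members or the highest cells. Some genes that these rules name are not reported here.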

Additional observations from a re-analysis of the deposited data

How the results depend on the processing

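The log2 ratio of the members' share, 0.55 of all cells and 1.09 of gated macrophages, was 0.27 and 0.73 with every cell thinned to 2000 UMIs, and 0.78 and 1.32 with no UMI of the Lyve1 set allowed. Genes higher and lower in ABX, 95 and 104, numbered 47 and 62 with members thinned, 555 and 442 with a minimum of 30 UMIs and 3711 and 2250 with none. Alternatives chosen after seeing the data gave 42 and 68 without members that carried 2 UMIs of another lineage (immunoglobulin genes aside), and 160 and 169 without the highest 2% of cells of each gene. Leaving out the highest cell of a gene, or cells with Lyz1 and Fn1, was also chosen after seeing the data. With immunoglobulin genes counted, 10 NW and 5 ABX members would be left, and that was not run. Also added later, cells of 3000 to 6000 UMIs gave 150 higher and 188 lower genes against the Lyve1 program group and 30 higher against Cd163-negative cells, and at least 2 Cd163 UMIs gave 35 lower there. Directions reversed for Jchain (log2 -0.10 with 2 Cd163 UMIs, -0.016 without other lineages), Cenpf (0.67 with no Lyve1 set UMI), Acta2 (-2.31 without other lineages, -0.87 at a 10% mitochondrial limit, -0.96 without the highest cell), Klkb1 and Fabp5 (0.15 and 0.11 without other lineages), and, against Cd163-negative cells of NW at 3000 to 6000 UMIs, Retnla (0.34) and Hmox1 (0.30). The causes were not tested. Of 336 values of 34 named genes over the settings, 234 moved by less than the counting interval, 94 by more and 8 reversed. With 280 and 417 cells and 1 library each, a gene below 100 UMIs could not be compared, and no replicate spread is known. No paired analysis was possible because each group holds 1 library.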
